A study of Mus musculus and Rattus norvegicus with 24 samples.

Results

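The 10 genes described here are P2ry12, P2ry13, Gpr34, Cx3cr1, Tmem119, Csf1r, Selplg, Siglech, Fcrls and Sall1, a set of surface receptors, other membrane proteins and 1 transcription factor that mark resting microglia. They were taken by gene symbol from the platform annotation. The set was chosen with earlier results of these data known. All 10 were present among the 22180 mouse genes tested, and 8 were present among the 18166 rat genes tested. Siglech and Fcrls had no cluster under those symbols in the rat table and were not analysed there. Each measured member had 1 probe set ("transcript cluster") with its symbol, except that mouse Selplg had a second, dimmer cluster that is given beside the first.

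RNA from brain tissue was measured on whole-transcript arrays after permanent middle cerebral artery occlusion (pMCAO), a stroke model in which a filament is passed into the artery and tied in place. The 4 occluded groups were C57BL/6 mice at 2 h, C57BL/6 mice at 6 h, Sprague-Dawley rats at 2 h and Sprague-Dawley rats at 6 h, and each had a sham group that underwent the same surgery without occlusion. Animals were adult males, aged 8 to 10 weeks in mice and 8 to 12 weeks in rats, with no transgene or drug named, and the occluded artery was the right one in mice and the left one in rats. A 3 by 3 mm block of penumbra, the tissue around the ischaemic core, or of the similar ipsilateral region in sham animals, was taken from 3 animals per group, with 1 array per animal and 24 arrays in all.

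All values are log2 expression on the deposited scale, where a difference of 1 is a doubling. Array medians ranged over 6.03 to 6.06 in mice at 2 h, 5.92 to 5.96 in mice at 6 h, 6.67 to 6.75 in rats at 2 h and 5.82 to 5.87 in rats at 6 h, so that pMCAO was set against sham within each time. The arrays held no detection calls, and their number limits the precision. The tissue carried its defining markers: the mean level over 10 neuronal genes was 10.20 to 10.54 on the mouse arrays and 10.83 to 11.60 on the rat arrays. The same 10 receptor-set genes served as the microglial markers, so their level cannot check itself.

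Microglia are the resident macrophages of the brain, and in the resting state their fine processes continually survey the surrounding tissue. This state is maintained by Csf1r signalling, by transforming growth factor beta and by the factor Sall1. It was read here from RNA of the genes named above, and no protein was measured. After injury microglia are known to retract or redirect their processes, to lower many resting-state surface proteins and to make cytokines and chemokines.

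At 6 h, P2ry12, P2ry13 and Selplg were lower after occlusion in both species, each at 55.4% to 63.4% of the sham level. The rat results for P2ry12 and Selplg lay near the 0.05 threshold (limma adjusted p = 0.0484 and 0.0491). Their calls held in 1 and 2 of the 6 fits without 1 array. The second, dimmer mouse Selplg cluster differed by -0.38 ± 0.11 (limma adjusted p = 0.0909 over all clusters). In mice 5 members fell (P2ry12, P2ry13, Csf1r, Selplg and Siglech), 1 rose (Fcrls) and 4 did not pass the threshold of an adjusted p of 0.05, against 7.43% of all mouse genes past it in either direction, 4.23% lower and 3.21% higher. In rats 6 of the 8 measured members fell (P2ry12, P2ry13, Gpr34, Tmem119, Selplg and Sall1) and none rose, against 6.47% of all rat genes past the threshold, 3.62% lower and 2.85% higher. The median log2 fold change over the measured members was -0.23 in mice and -0.56 in rats, against -0.02 over all genes in each species. At 2 h no member passed in either species. In whole tissue, fewer microglia and less RNA per microglial cell cannot be told apart.

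**Figure D1:**
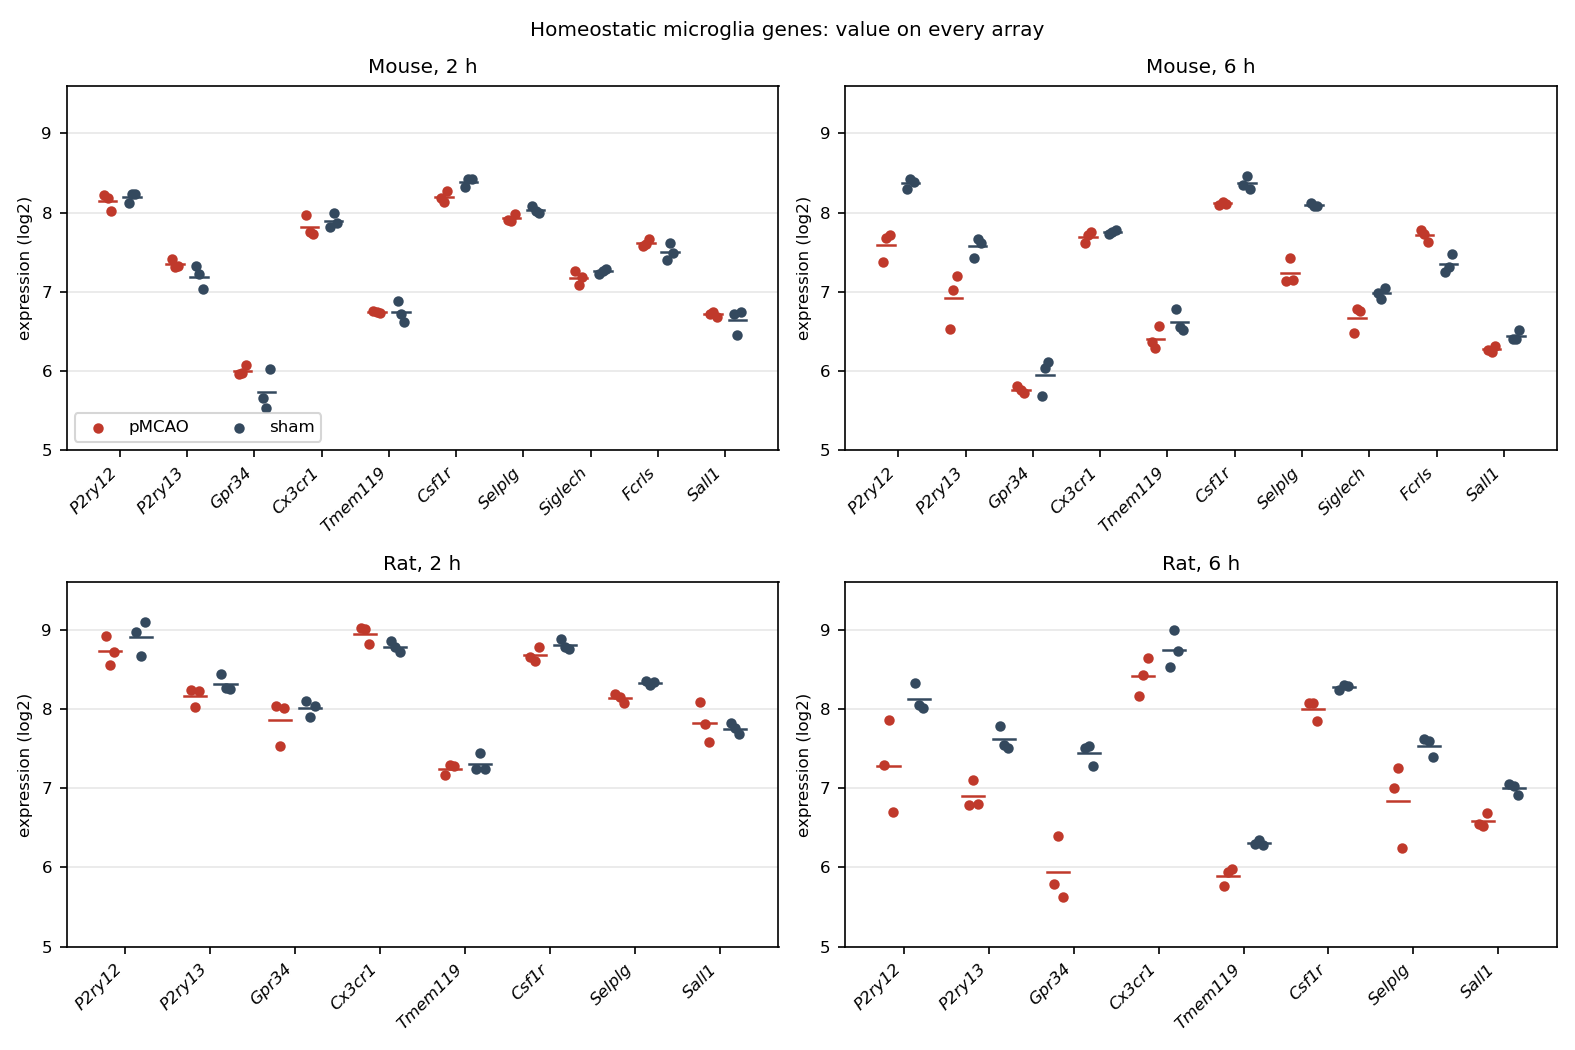
Log2 expression of each measured member on every array, by species and time, with pMCAO (red) left of sham (dark blue) for each gene; points are single animals and bars are means of 3. At 6 h the pMCAO points of P2ry12, P2ry13 and Selplg lie below all sham points in both species, while at 2 h the points of most members overlap.

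P2ry12 and P2ry13 are Gi-coupled receptors for ADP, the nucleotide that leaks from injured cells, and P2ry12 is known to steer microglial processes toward it. The 2 genes lie side by side on mouse chromosome 3, with 0 annotated genes between them in the RefSeq table. Their promoters are shown with that of Cx3cr1, a member that did not pass in either species, because the neighbouring pair fell together. Each is the 250 bases before the RefSeq transcription start in GRCm38.p6, read 5′ to 3′ on the gene's strand, and capitals mark a match to a PU.1-type motif, the sequence class bound by the myeloid factor encoded by Spi1.
P2ry12, chr3:59262986-59263235, minus strand: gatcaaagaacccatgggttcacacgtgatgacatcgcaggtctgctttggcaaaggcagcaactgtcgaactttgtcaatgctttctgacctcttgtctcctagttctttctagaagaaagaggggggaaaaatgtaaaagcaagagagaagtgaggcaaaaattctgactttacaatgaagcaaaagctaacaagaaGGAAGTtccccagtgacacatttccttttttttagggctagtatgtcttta
P2ry13, chr3:59210883-59211132, minus strand: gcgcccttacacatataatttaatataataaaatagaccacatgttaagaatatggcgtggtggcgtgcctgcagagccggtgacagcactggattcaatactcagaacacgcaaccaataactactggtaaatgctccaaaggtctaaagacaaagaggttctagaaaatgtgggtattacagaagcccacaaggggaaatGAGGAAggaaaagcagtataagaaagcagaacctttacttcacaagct
Cx3cr1, chr9:120068297-120068546, minus strand: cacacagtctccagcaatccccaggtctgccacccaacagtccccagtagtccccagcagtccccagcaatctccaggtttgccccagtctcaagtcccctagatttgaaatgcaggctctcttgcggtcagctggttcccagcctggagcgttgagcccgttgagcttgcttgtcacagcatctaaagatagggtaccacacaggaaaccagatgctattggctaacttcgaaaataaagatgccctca
The P2ry12 window held GGAAGT 51 bases before the start, the P2ry13 window held GAGGAA 48 bases before it, and the Cx3cr1 window held neither. Searching both strands, with the shared letters GGAA allowing the motifs to overlap, at least 1 of them was present in 36.7% of the 32851 mouse promoter windows (GAGGAA in 23.3%, GGAAGT in 19.7%). RefSeq windows were matched for 6 of the 10 members, P2ry12, P2ry13, Cx3cr1, Siglech, Fcrls and Sall1, with 8 windows in all since Sall1 had 3. A PU.1-type motif was present in 5 of these 8 windows, a RUNX-type TGTGGT in 4 (14% of all windows) and an AP-1-type TGANTCA in 0 (6.75% of all windows). Fcrls, which rose in mice, held both PU.1-type motifs. Sall1, which did not pass in mice, and Siglech, which fell, each held GGAAGT, so the motifs were not limited to genes that fell. A match is a description of the letters and not evidence of binding.

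P2ry12 read 7.38, 7.68 and 7.72 in pMCAO mice at 6 h, against 8.30, 8.43 and 8.39 in sham mice. The groups did not overlap, and the log2 fold change was -0.78 ± 0.09 (SE; limma adjusted p = 0.00121), or 58.2% of sham. In pMCAO rats at 6 h P2ry12 read 7.29, 7.86 and 6.70, against 8.33, 8.05 and 8.01 in sham rats, with the third pMCAO array lowest and the second close to the sham range. The rat log2 fold change was -0.85 ± 0.23 (adjusted p = 0.0484). The mouse call held without each array in turn, while the rat call held only without pMCAO replicate 2 (-1.14, adjusted p = 0.0047) and had adjusted p of 0.076 to 0.157 without any other array, with a log2 fold change of -0.56 without pMCAO replicate 3.

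P2ry13 read 6.53, 7.02 and 7.20 in pMCAO mice at 6 h, against 7.43, 7.67 and 7.62 in sham mice, a log2 fold change of -0.66 ± 0.14 (adjusted p = 0.0217). In pMCAO rats it read 6.79, 7.10 and 6.80, against 7.79, 7.55 and 7.51 in sham rats, a log2 fold change of -0.72 ± 0.11 (adjusted p = 0.00298). Occluded animals lay below all sham animals in both species, and the first pMCAO mouse was the lowest of its group. The rat call held without each array in turn, and the mouse call was lost without sham replicate 2 (adjusted p = 0.0675) or sham replicate 3 (adjusted p = 0.0735). At 2 h the same receptors differed little: P2ry12 by -0.05 ± 0.09 in mice and -0.18 ± 0.23 in rats, and P2ry13 by 0.16 ± 0.14 in mice and -0.16 ± 0.11 in rats (adjusted p = 0.816 to 0.942). P2ry13 in rats was nonetheless lower on all 3 pMCAO arrays at 2 h (8.24, 8.03 and 8.23) than on the 3 sham arrays (8.44, 8.27 and 8.26).

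Med12l, a Mediator subunit gene within which P2ry12 and P2ry13 lie, averaged 8.43 ± 0.08 in pMCAO mice and 8.67 ± 0.03 in sham mice at 6 h (SD, n = 3 each), a fall of -0.25 ± 0.07 on the log2 scale (limma adjusted p = 0.0432). That call held under 5 of 16 alternatives, and in 1 of the 6 fits without 1 array (adjusted p up to 0.12). Together with P2ry14, Gpr171 and Igsf10, other genes near P2ry12 and P2ry13, 1 of 3 measured in mice passed, with a median log2 fold change of -0.25 and all 3 negative. In rats 0 of 4 passed by limma (1 with an unadjusted p under 0.05), with a median of 0.08 and 3 of the 4 positive, Med12l itself being at -0.25 ± 0.10 (adjusted p = 0.164). Whether the probe sets of these overlapping genes are strand-specific is not given in the sources used here.

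Gpr34, a receptor for lysophosphatidylserine, a lipid exposed by dying cells, had the lowest log2 fold change of the rat members. It read 5.79, 6.40 and 5.63 in pMCAO rats at 6 h, against 7.51, 7.54 and 7.28 in sham rats, so that every occluded animal was below every sham animal. The log2 fold change was -1.50 ± 0.18 (adjusted p = 0.000925), or 35.3% of sham, and it ranged from -1.73 to -1.35 when each array was left out, passing each time. At 2 h it read 8.04, 7.54 and 8.01 in pMCAO rats, against 8.10, 7.90 and 8.04 in sham rats (-0.15 ± 0.18, adjusted p = 0.908).

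In mice Gpr34 did not pass at either time. It read 5.81, 5.76 and 5.72 in pMCAO mice at 6 h, against 5.68, 6.04 and 6.11 in sham mice, with overlapping groups and a log2 fold change of -0.18 ± 0.13 (95% interval -0.46 to 0.10, adjusted p = 0.434). At 2 h it read 5.96, 5.98 and 6.07 in pMCAO mice, against 5.66, 5.53 and 6.02 in sham mice (0.27 ± 0.13, adjusted p = 0.663). The difference between the species' fold changes at 6 h, mouse minus rat, was 1.32 ± 0.22 (95% interval 0.86 to 1.79), with an adjusted p of 0.00454 over 14193 shared symbols, of which 2.28% passed, 1.09% with a higher value in mice. Gpr34 was the only 1 of the 8 shared members to pass, and it did so without each of the 12 arrays in turn (adjusted p = 0.000108 to 0.0226 over all alternatives). The mouse cluster lay at 5.53 to 6.11, close to the array medians of 5.92 to 6.06, whereas the rat cluster stood at 7.28 to 8.10 in sham animals. The part of probe brightness in the species difference was not tested. Array design, occluded side and age range also differed between the mice and rats and cannot be told apart from species.

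Selplg encodes P-selectin glycoprotein ligand 1, which binds selectins on activated endothelium and is carried by microglia as well as by circulating leukocytes. It read 7.14, 7.43 and 7.15 in pMCAO mice at 6 h, against 8.12, 8.08 and 8.08 in sham mice. The sham arrays nearly coincided and no pMCAO array came near them, and the log2 fold change was -0.85 ± 0.08 (adjusted p = 0.000254), held without each array in turn. The second mouse Selplg cluster read 6.29, 6.37 and 6.23 in pMCAO mice, against 6.81, 6.75 and 6.47 in sham mice, a difference of -0.38 ± 0.11 that did not pass over all clusters (adjusted p = 0.0909).

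In pMCAO rats at 6 h Selplg read 7.01, 7.26 and 6.25, against 7.62, 7.60 and 7.39 in sham rats, a log2 fold change of -0.70 ± 0.19 (adjusted p = 0.0491). The third pMCAO rat was far below the other 2, as it was for P2ry12. Without that array the log2 fold change was -0.40 and the call held. It was lost without pMCAO replicate 1 (adjusted p = 0.0652) or any sham array (adjusted p = 0.0675 to 0.141). At 2 h Selplg was lower on every pMCAO array than on every sham array in both species without passing, by -0.11 ± 0.08 in mice (adjusted p = 0.794) and -0.19 ± 0.19 in rats (adjusted p = 0.881).

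Csf1r, the receptor tyrosine kinase for Csf1 and Il34 on which microglial survival depends, read 8.10, 8.14 and 8.11 in pMCAO mice at 6 h, against 8.35, 8.46 and 8.30 in sham mice. The fall was small, at 83.9% of sham (log2 fold change -0.25 ± 0.06, adjusted p = 0.0361), and the call was lost without any 1 of the 6 arrays (adjusted p = 0.0574 to 0.116). In pMCAO rats Csf1r read 8.08, 8.08 and 7.85, against 8.24, 8.30 and 8.29 in sham rats, a difference of similar size that did not pass (-0.27 ± 0.08, adjusted p = 0.0657). At 2 h the pMCAO mice, at 8.19, 8.13 and 8.27, already lay below the sham mice, at 8.32, 8.43 and 8.43, without passing (-0.20 ± 0.06, adjusted p = 0.433). This was the 1 member with an unadjusted p under 0.05 at 2 h.

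Cx3cr1, the receptor for the neuronal chemokine fractalkine (Cx3cl1), did not pass in any comparison. It read 7.62, 7.72 and 7.75 in pMCAO mice at 6 h, against 7.73, 7.75 and 7.78 in sham mice (-0.06 ± 0.08, 95% interval -0.22 to 0.11, adjusted p = 0.704). In rats at 6 h it read 8.17, 8.43 and 8.65 after pMCAO, against 8.53, 9.0 and 8.73 after sham surgery (-0.34 ± 0.13, 95% interval -0.63 to -0.05, adjusted p = 0.156). The groups overlapped in both species, and the mouse interval excludes a fall of the size measured for P2ry12 in the same animals.

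Tmem119, a transmembrane protein used as a microglial marker, read 5.77, 5.94 and 5.98 in pMCAO rats at 6 h, against 6.30, 6.35 and 6.29 in sham rats, a fall of -0.42 ± 0.08 (adjusted p = 0.0123) that held without each array in turn. In mice it read 6.37, 6.29 and 6.57 after pMCAO, against 6.78, 6.56 and 6.52 after sham surgery, with overlap between the groups (-0.21 ± 0.10, adjusted p = 0.21). Sall1, the zinc finger factor that maintains microglial identity, read 6.55, 6.52 and 6.69 in pMCAO rats at 6 h, against 7.05, 7.03 and 6.92 in sham rats. That fall of -0.41 ± 0.11 (adjusted p = 0.0449) was lost without any 1 of the 6 arrays (adjusted p = 0.0576 to 0.133). In mice Sall1 read 6.27, 6.24 and 6.32 after pMCAO, against 6.41, 6.41 and 6.52 after sham surgery, not overlapping but not passing (-0.17 ± 0.08, adjusted p = 0.207).

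Siglech and Fcrls, both measured in mice only, moved in opposite directions. Siglech, a sialic acid-binding lectin that signals through the adaptor encoded by Tyrobp, read 6.48, 6.78 and 6.76 in pMCAO mice at 6 h, against 6.99, 6.91 and 7.05 in sham mice (-0.31 ± 0.08, adjusted p = 0.0477). Without a single array its adjusted p was 0.0499 to 0.147, and the call held in 1 of 6 such fits, the one without pMCAO replicate 2. Fcrls, an Fc receptor-like protein with a scavenger receptor domain, read 7.78, 7.73 and 7.63 in pMCAO mice, against 7.25, 7.31 and 7.48 in sham mice, so that all occluded mice were above all sham mice. It rose by 0.37 ± 0.08 (adjusted p = 0.0193), or 129% of sham, and the call was lost without pMCAO replicate 1 or 2 (adjusted p = 0.0523 for each), sham replicate 1 (0.0619) or sham replicate 2 (0.0605).

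**Figure D2:**
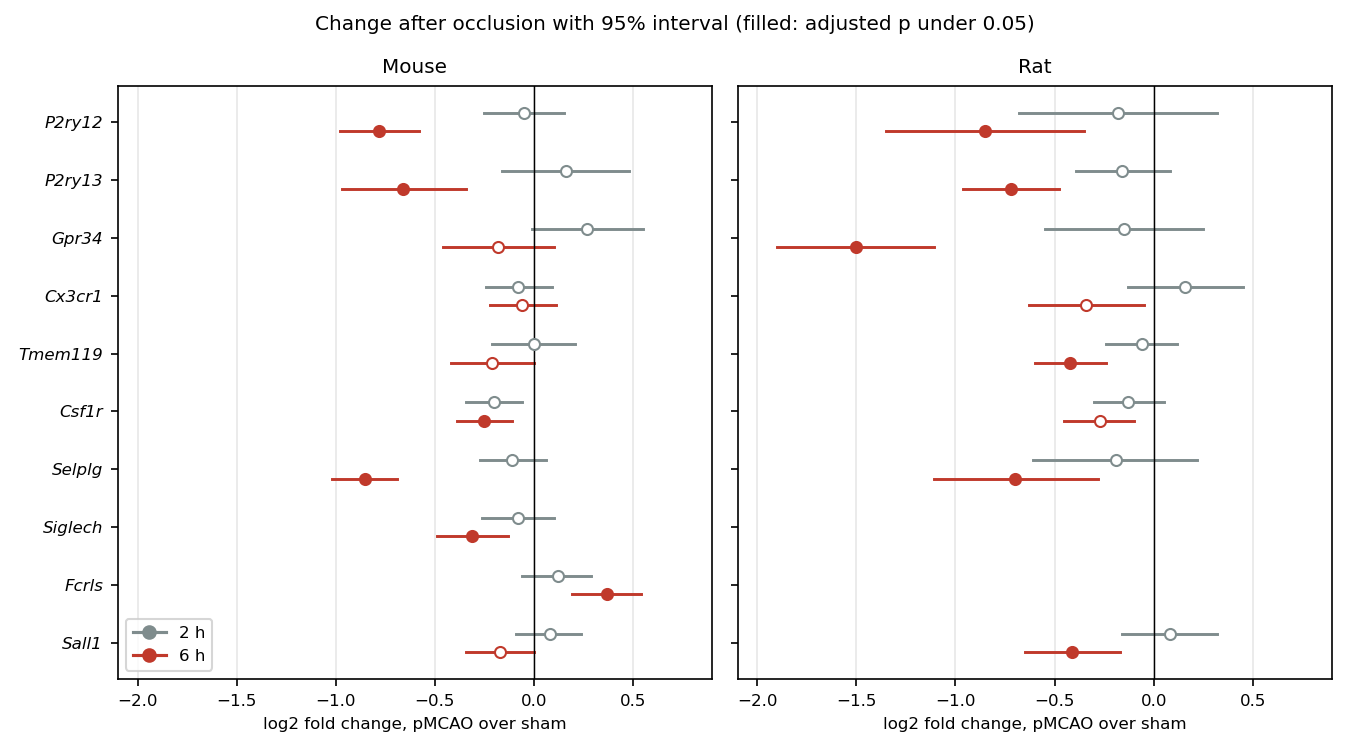
Log2 fold change of pMCAO over sham with its 95% interval from limma, for each measured member in mice and rats, at 2 h (grey, upper of each pair) and 6 h (red); filled points have an adjusted p under 0.05. No 2 h point is filled. At 6 h the filled points run from -1.50 (rat Gpr34) to 0.37 (mouse Fcrls), the only filled point above 0.

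Groups that did not overlap were counted next. At 6 h all pMCAO arrays lay below all sham arrays for 6 of 10 members in mice, against 14.6% of all mouse genes, and above them for 1 (10.7% of all). The same was true below for 7 of 8 members in rats, against 14.8% of all rat genes, and above for 0 (9.73% of all). At 2 h it was true below for 2 of 10 in mice (Csf1r and Selplg; 8.39% of all) and for 2 of 8 in rats (P2ry13 and Selplg; 7.57% of all), and above for none in either species (6.24% and 5.54% of all). The mean level over the members was 6.95, 7.08 and 7.09 in pMCAO mice at 6 h, against 7.30, 7.36 and 7.38 in sham mice, and 6.93, 7.20 and 6.82 in pMCAO rats, against 7.67, 7.68 and 7.55 in sham rats.

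At 2 h the count was 0 of 10 in mice by limma (1 with an unadjusted p under 0.05), against 0.298% of all mouse genes past the threshold, 0.149% in each direction. In rats it was 0 of 8 (0 with an unadjusted p under 0.05), against 0.0661% of all rat genes, 0.033% in each direction. Adjusted p ran from 0.433 to 1 in mice and from 0.799 to 0.926 in rats, and the count stayed at 0 under every alternative run. Not given above, Cx3cr1 differed at 2 h by -0.08 ± 0.08 in mice and 0.16 ± 0.13 in rats, Tmem119 by 0.00 ± 0.10 in mice and -0.06 ± 0.08 in rats, Sall1 by 0.08 ± 0.08 in mice and 0.08 ± 0.11 in rats, and Csf1r by -0.13 ± 0.08 in rats. In mice Siglech differed by -0.08 ± 0.08 and Fcrls by 0.12 ± 0.08. Fold changes at 2 h ranged from -0.20 to 0.27 in mice and from -0.19 to 0.16 in rats, with a median of -0.02 and -0.14.

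The effect of occlusion was then compared between the times, as the 6 h fold change minus the 2 h fold change. Array medians and minima differed between the times, and the part of these differing scales in the comparison was not tested. In mice Selplg passed, at -0.75 ± 0.11 (adjusted p = 0.0379), against 0.171% of all mouse genes, 0.0857% lower. That call was lost without 10 of the 12 arrays in turn (adjusted p up to 0.119), and held without pMCAO replicate 1 or 2 at 6 h. P2ry12 (-0.73 ± 0.13, adjusted p = 0.0573) and P2ry13 (-0.82 ± 0.20, adjusted p = 0.126) differed by similar amounts without passing, and P2ry12 passed without pMCAO replicate 1 at 6 h (adjusted p = 0.0437). The other mouse members, with adjusted p of 0.299 to 0.959, differed by -0.45 ± 0.18 (Gpr34), -0.25 ± 0.11 (Sall1), -0.23 ± 0.12 (Siglech), -0.21 ± 0.13 (Tmem119), -0.06 ± 0.09 (Csf1r), 0.02 ± 0.11 (Cx3cr1) and 0.25 ± 0.11 (Fcrls), and 6 of the 10 had an unadjusted p under 0.05. In rats no member passed by limma (5 with an unadjusted p under 0.05), against 0.231% of all rat genes. Of the rat members Gpr34 had the lowest difference, -1.35 ± 0.26 (adjusted p = 0.0693), and it passed without pMCAO replicate 2 at 2 h (adjusted p = 0.0295) or at 6 h (adjusted p = 0.00754). The others differed by -0.66 ± 0.32 (P2ry12), -0.56 ± 0.15 (P2ry13), -0.50 ± 0.19 (Cx3cr1), -0.50 ± 0.27 (Selplg), -0.49 ± 0.16 (Sall1), -0.35 ± 0.12 (Tmem119) and -0.15 ± 0.11 (Csf1r), with adjusted p of 0.197 to 0.696.

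Of the 8 members measured in both species, 3 fell in both at 6 h and all 8 had a negative fold change in both, with mouse Cx3cr1 at 0.01 once a striatal marker score was added to the fit. Apart from Gpr34, the species' fold changes at 6 h differed (mouse minus rat) by -0.16 ± 0.20 for Selplg, 0.02 ± 0.10 for Csf1r, 0.06 ± 0.18 for P2ry13, 0.07 ± 0.25 for P2ry12, 0.21 ± 0.13 for Tmem119, 0.24 ± 0.13 for Sall1 and 0.28 ± 0.15 for Cx3cr1, with adjusted p of 0.394 to 0.952. The 95% intervals of those differences reached 0.60 at most for Cx3cr1 and -0.59 at least for Selplg, so differences of that size were not excluded. At 2 h no member passed between the species (limma adjusted p = 0.998 to 1), against 0.0141% of all shared symbols past the threshold, and 0 members had an unadjusted p under 0.05. Those differences ran from -0.24 ± 0.15 (Cx3cr1), through -0.07 (Csf1r), 0.00 (Sall1), 0.06 (Tmem119), 0.09 (Selplg), 0.13 (P2ry12) and 0.32 (P2ry13), to 0.42 ± 0.22 (Gpr34).

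**Figure D3:**
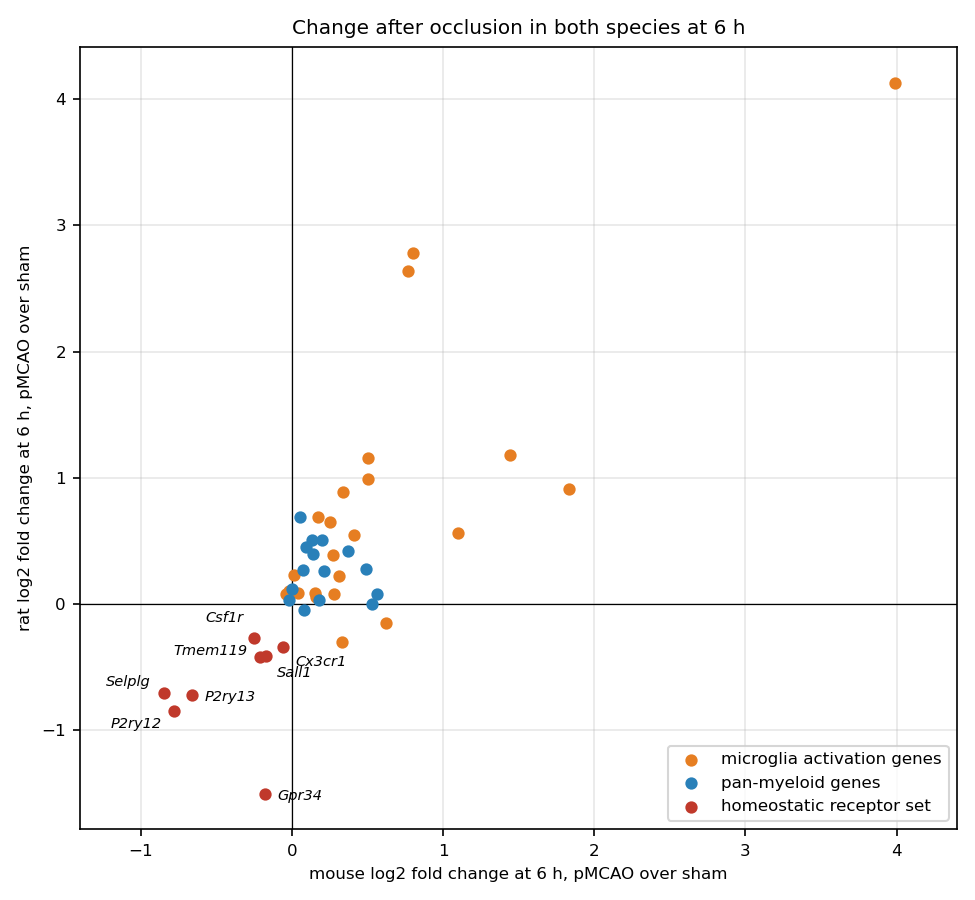
Log2 fold change of pMCAO over sham at 6 h in mice (horizontal axis) and rats (vertical axis) for genes measured in both; red points are the 8 shared receptor-set members, blue points pan-myeloid genes and orange points microglia activation genes. The red points lie to the left of and below 0 on both axes, with Gpr34 at -0.18 in mice and -1.50 in rats, and the highest orange point is Ccl3 at 3.99 and 4.13.

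The ligands and partners of these receptors were examined next: Csf1 and Il34 for Csf1r, Cx3cl1 for Cx3cr1, the selectins Selp and Sele for Selplg, Tgfb1 for the resting programme, and the ectoenzymes Entpd1 and Nt5e that break down the nucleotides sensed by P2ry12 and P2ry13. Of the 8 measured in mice, Csf1 rose at 6 h (3.21% of all mouse genes were higher) and the other 7 did not pass, and of the 7 measured in rats none passed by limma (1 with an unadjusted p under 0.05). Csf1 averaged 7.38 ± 0.11 in pMCAO mice and 6.87 ± 0.17 in sham mice (SD), a log2 fold change of 0.52 ± 0.09 (adjusted p = 0.00877). In rats the Csf1 difference was 0.36 ± 0.16 (adjusted p = 0.208). Cx3cl1 differed by -0.08 ± 0.07 in mice and 0.22 ± 0.11 in rats, and Il34 by -0.26 ± 0.11 in mice and -0.10 ± 0.08 in rats. Entpd1, measured in mice only, differed by -0.31 ± 0.09 (adjusted p = 0.0521), Nt5e by 0.06 ± 0.13 in mice and 0.14 ± 0.13 in rats, and Tgfb1 by 0.17 ± 0.07 and 0.22 ± 0.12. Selp and Sele differed by 0.23 ± 0.12 and 0.19 ± 0.11 in mice and by 0.15 ± 0.12 and 0.09 ± 0.16 in rats. At 2 h none passed in either species (1 with an unadjusted p under 0.05 in each).

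Of other homeostatic microglia genes, 1 of 19 fell and 1 rose in mice at 6 h and 1 of 16 fell in rats, shares near those over all genes (4.23% lower and 3.21% higher in mice, 3.62% lower and 2.85% higher in rats). With dim genes left out the mouse count was 3 lower and 0 higher. Mertk, a receptor for engulfing dead cells, was lower in mice (8.20 ± 0.04 after pMCAO and 8.57 ± 0.03 after sham surgery, -0.37 ± 0.07, adjusted p = 0.0128), and Gpr84, a fatty acid receptor known to rise on activation, was higher (1.00 ± 0.14, adjusted p = 0.00292). In rats the transporter gene Slco2b1 was lower (-0.39 ± 0.11, adjusted p = 0.0492), a call that held under 7 of 16 alternatives and was lost without pMCAO replicate 2 or 3 or sham replicate 1 or 2 (adjusted p up to 0.163). The Mertk call held under 13 of 16 and the Gpr84 call under 14 of 15. The median over this list was -0.02 in mice and -0.04 in rats, against -0.02 over all genes. Of the lineage transcription factors, Irf8 rose in both species (0.40 ± 0.09 in mice, adjusted p = 0.0278, and 0.35 ± 0.10 in rats, adjusted p = 0.0491), and the other 7 in mice and 6 in rats did not pass. The mouse Irf8 call held under 5 of 15 alternatives, being lost without pMCAO replicate 2 or 3 or sham replicate 2 or 3 (adjusted p up to 0.0859), and the rat call under 4 of 15, being lost without any array but pMCAO replicate 3 (adjusted p up to 0.144). The Irf8 estimate stayed above 0 without each array, at 0.36 to 0.44 in mice and 0.27 to 0.43 in rats.

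Of 16 pan-myeloid genes, 4 rose in mice at 6 h and none fell, against 3.21% of all mouse genes higher. These were Cd68, a lysosomal glycoprotein (0.56 ± 0.08), the tetraspanin Cd53 (0.53 ± 0.09), the integrin chain Itgb2 (0.49 ± 0.09) and the Fc receptor chain Fcer1g (0.37 ± 0.10). Of 15 measured in rats, 4 rose and none fell, against 2.85% of all rat genes higher: the integrin chain Itgam (0.69 ± 0.17), the adaptor Tyrobp (0.51 ± 0.10) and the complement genes C1qc (0.51 ± 0.09) and C1qb (0.40 ± 0.09). Adjusted p was 0.00321 to 0.0465 for these genes. The rat count was 2 without pMCAO replicate 1, sham replicate 1 or sham replicate 3, and the mouse count was 3 to 5. The calls of Cd68, Cd53 and Itgb2 in mice and of Tyrobp and C1qc in rats held without each array in turn, while those of Fcer1g and Itgam held in 1 of 6 such fits and that of C1qb in 3. On the 6 arrays alone the count was 1 in each species. The list's median was 0.16 in mice and 0.27 in rats, where the receptor set stood at -0.23 and -0.56.

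Activation genes rose more widely, in 12 of 24 measured in mice and 12 of 25 in rats at 6 h, with none lower (3.21% and 2.85% of all genes were higher), and with a median of 0.34 in mice and 0.55 in rats. The chemokine Ccl3 averaged 9.61 ± 0.79 in pMCAO mice and 5.62 ± 0.12 in sham mice (3.99 ± 0.36, adjusted p = 0.000254), and 8.75 ± 0.48 in pMCAO rats and 4.63 ± 0.21 in sham rats (4.13 ± 0.37, adjusted p = 0.000133). The next highest rises were the inhibitory receptor Lilrb4a (2.88 ± 0.26), the endotoxin co-receptor Cd14 (1.83 ± 0.17) and the cytokine Il1a (1.44 ± 0.13) in mice. In rats they were the chemokines Ccl4 (2.78 ± 0.22) and Ccl2 (2.64 ± 0.49) and the secreted phosphoprotein Spp1 (1.32 ± 0.18). At 2 h, when no receptor-set gene had passed, 3 activation genes had risen in mice, against 0.149% of all mouse genes higher. These were Ccl3 (2.36 ± 0.36, adjusted p = 0.0229), Il1a (0.79 ± 0.13, adjusted p = 0.0394) and Nfkbiz, an NF-kB regulator (0.51 ± 0.09, adjusted p = 0.0446). That count fell to 1 without pMCAO replicate 1 or 2 and to 0 without any other array, and in rats at 2 h none passed (5 with an unadjusted p under 0.05). At 6 h it was 9 to 12 in mice and 8 to 12 in rats without each array in turn, and it was 8 in rats without sham replicate 1 or 2. It was 6 in each species on the 6 arrays alone, and 5 in mice and 3 in rats with dim genes left out, which removes some of the list from the test. The Ccl3 and Il1a calls at 6 h held under every alternative in which they were tested, in both species.

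**Figure D4:**
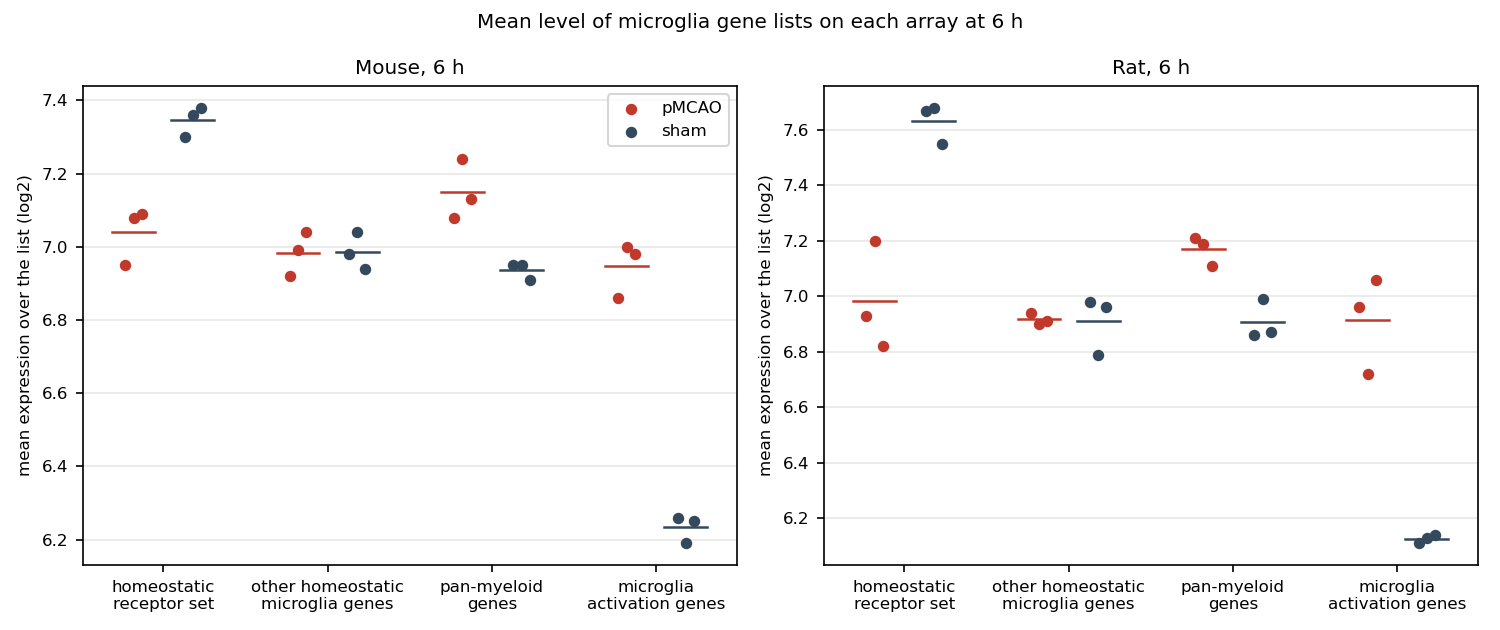
Mean log2 level of 4 gene lists on each array at 6 h in mice and rats, with pMCAO (red) left of sham (dark blue); points are animals and bars are means of 3. The receptor set is lower after pMCAO on every array in both species, activation and pan-myeloid genes are higher, and the other homeostatic genes overlap.

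Markers of other cell types moved with the comparison in part. In mice at 6 h all 7 measured markers of striatal neurons were lower after pMCAO, each with an unadjusted limma p under 0.05. Their median log2 fold change was -0.70, against -0.02 over all genes. Of the 7, 2 passed the threshold (Drd2 -1.64 ± 0.41 and Tac1 -0.75 ± 0.18), against 4.23% of all mouse genes lower. The mean level of the 7 was 7.14 to 7.32 in pMCAO mice and 7.38 to 8.54 in sham mice. In rats at 6 h none of 8 passed (2 with an unadjusted p under 0.05), and their mean level was 6.86 to 6.90 in pMCAO rats and 6.71 to 6.78 in sham rats. With that mean level as a covariate, chosen after seeing the data, P2ry12 (-0.81 ± 0.14, adjusted p = 0.0461) and Selplg (-0.87 ± 0.12, adjusted p = 0.0158) were the 2 members that passed in mice. In rats P2ry13 (-0.68 ± 0.12), Gpr34 (-1.50 ± 0.21) and Tmem119 (-0.41 ± 0.10) were the 3 that passed. Members that lost their call with the covariate had mouse fold changes of -0.74 ± 0.22 (P2ry13), -0.35 ± 0.09 (Csf1r), -0.23 ± 0.12 (Siglech) and 0.41 ± 0.12 (Fcrls), with adjusted p of 0.14 to 0.476. In rats these were -0.87 ± 0.27 (P2ry12), -0.65 ± 0.22 (Selplg) and -0.41 ± 0.13 (Sall1), with adjusted p of 0.109 to 0.135. Apart from Siglech, these estimates were close to or larger in size than those without the covariate, with larger standard errors. The striatal mean level did not overlap between pMCAO and sham animals at 6 h in either species. The fit therefore cannot cleanly separate it from occlusion, and neither held nor lost calls show its part in the members' results. With the covariate 65 of all mouse genes and 606 of all rat genes passed, against 1649 and 1175 without it. The activation count was then 4 in mice and 8 in rats, the pan-myeloid count 0 in mice and 2 in rats, and that of other homeostatic and lineage genes 0 in both.

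Blood cell markers rose in part at 6 h, against 3.21% of all mouse genes and 2.85% of all rat genes higher. Of neutrophil markers 1 of 13 rose in mice (Retnlg 1.19 ± 0.16) and 2 of 12 in rats (Mmp8 1.04 ± 0.26 and S100a9 0.99 ± 0.20). The list's mean level was 5.18 to 5.47 in pMCAO mice and 5.04 to 5.11 in sham mice, and 5.16 to 5.26 in pMCAO rats and 4.76 to 4.92 in sham rats. Of monocyte markers 0 of 9 passed in mice (1 with an unadjusted p under 0.05) and 1 of 7 in rats (Ccr2 0.58 ± 0.12), and their mean level was 5.67 to 5.78 in pMCAO mice and 5.60 to 5.65 in sham mice, and 5.57 to 5.80 in pMCAO rats and 5.41 to 5.45 in sham rats. Border macrophage markers, 10 in mice and 8 in rats, and lymphocyte markers, 8 in each, had 0 past the threshold in either species (of the border macrophage markers 0 and of the lymphocyte markers 4 in mice and 0 in rats had an unadjusted p under 0.05). Of general neuronal markers 1 of 10 fell in mice (Stmn2 -0.22 ± 0.06) and 0 of 10 passed in rats (3 with an unadjusted p under 0.05). The part of infiltrating cells and of the cellular make-up of the blocks in the members' results was not tested.

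Endothelial and glial markers passed in part at 6 h, against the 7.43% of mouse and 6.47% of rat genes past the threshold in either direction. The transporter gene Slco1a4 fell in both species (-0.82 ± 0.11 in mice and -1.90 ± 0.17 in rats), Emcn fell in rats (-0.71 ± 0.14) and Cdh5 rose in mice (0.58 ± 0.14), while the other 8 endothelial markers in mice and 7 in rats did not pass. Gfap, the astrocyte filament gene, rose in mice (0.89 ± 0.19), and the other 9 astrocyte markers in mice and all 9 in rats did not pass. In mice all 9 measured oligodendrocyte markers had a positive fold change (median 0.18, against -0.02 over all genes). For 5 of the 9 all pMCAO arrays lay above all sham arrays, against 10.7% of all mouse genes. Their mean level was 9.42 to 9.50 in pMCAO mice and 9.08 to 9.41 in sham mice, with no overlap, and 9.88 to 10.12 in pMCAO rats and 9.98 to 10.07 in sham rats (median -0.03). No oligodendrocyte, precursor, mural or choroid plexus marker passed in either species (5, 1, 0 and 0 with an unadjusted p under 0.05 in mice and 1, 1, 2 and 0 in rats). Of the cell type calls, Retnlg in mice and Slco1a4 in both species held without each array in turn, and Ccr2, S100a9 and Emcn in 5 of 6 such fits. Gfap held in 3, Tac1 and Cdh5 in 2, and Drd2, Stmn2 and Mmp8 in 1. The part of a shift in oligodendrocyte share in the members' results was not tested.

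The members did not vary alike. Over the 12 arrays of a species, centred within each time, the correlation of a member with the mean of all members, which includes it, was highest for P2ry12 (0.97), Selplg (0.93) and P2ry13 (0.92) in mice and for Gpr34 (0.99), P2ry13 (0.97) and P2ry12 (0.91) in rats. It was lowest for Fcrls (-0.79), Cx3cr1 (0.39) and Gpr34 (0.41) in mice and for Cx3cr1 (0.50) in rats. The non-member genes most like that mean were Cyp2u1 (0.98), Cpped1 (0.96), Pot1a, Kifap3 and Smim15 (0.95 each) in mice, and Pibf1 (0.99), Senp8 (0.98), Pierce2, Sox6 and Dmac1 (0.97 each) in rats. Arrays share the occlusion contrast and their own processing, so these values are a description.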

How the data were processed

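The 24 animals formed 8 groups of 3, with groups and replicate numbers taken from the sample titles. A further label for the time gives 2 h throughout and was left aside, since titles, source names and descriptions give 2 h or 6 h. Each array is 1 animal, per the labels.

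The authors deposited 1 table of log2 expression values per species, with 12 arrays each. Per the labels' protocols, RNA was isolated with the RNeasy kit, had an integrity number above 7.5 and was labelled with the WT PLUS kit. The R packages oligo and limma made these values, per the submitters' processing notes, which give no version. How background was removed and how arrays were normalized is not given in the sources used here. Medians and minima differ between the times within each species, so values were compared within a time. Between the times only fold changes were compared. Any 2 arrays shared the same value at 2.54% of clusters at most.

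Of 41345 mouse clusters the platform annotation gives 23521 a single symbol, 1814 several and 16010 none, and of 36685 rat clusters 18511, 575 and 17599. Each symbol was represented by its cluster with the highest mean. All 11 mouse clusters of the members matched RefSeq gene IDs with equal symbols. The values carry no genome build, and the only coordinates given are those of RefSeq promoter windows (GRCm38.p6).

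Group means were fitted to the 12 arrays of a species with limma 3.58.1 (R 4.3.3), leaving 8 residual degrees of freedom, with eBayes at its defaults. P-values are two-sided and were adjusted by the Benjamini-Hochberg method over all genes, with a threshold of 0.05 and no fold limit. For the species, the difference of the log2 fold changes was divided by its standard error and read against Welch-Satterthwaite degrees of freedom. An exact permutation test of 3 against 3 cannot reach less than 0.1, and p-values for single genes therefore come from the across-gene limma model. The steps were tested on simulated arrays with planted changes and noise drawn independently for each gene. Those arrays held no shared array effects, so they do not show how stable the calls here are. The members and lists were chosen with earlier results of these data known, so list counts are descriptions, to be read beside the shares over all genes that the report gives for each comparison. All members are named in every comparison, with all measured ligands and partners, up to 4 genes past the threshold per pathway list, the highest and lowest passing marker per cell type list, and the 5 non-members most correlated with the members' mean, uncharacterised symbols aside. Alternatives were another normalization or centring, other variance settings, array weights, other cluster rules, dim genes left out, a replicate block, the 6 arrays of a comparison alone, each array left out, and a striatal marker covariate added after seeing the data.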

Additional observations from a re-analysis of the deposited data

Results flagged for a closer look

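Selplg was the member whose occlusion effect differed between the times by the test of the difference itself: in mice the 6 h fold change minus the 2 h fold change was -0.75 on the log2 scale (limma adjusted p = 0.0379), from -0.85 at 6 h and -0.11 at 2 h. That call held under 7 of 20 alternatives, and in 2 of the 12 fits without 1 array. In mice P2ry13 (-0.82) and P2ry12 (-0.73) differed by similar amounts without passing. The part of the differing array scales of the times in these differences was not tested. Gpr34 was the member whose effect differed between the species at 6 h, by 1.32 (mouse minus rat; adjusted p = 0.00454), from -0.18 in mice and -1.50 in rats. No group held enough animals for a search for a sample far from its group.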

How the results depend on the processing

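Over 1202 recomputed member values, 1080 kept their direction and their side of the threshold, 73 lost a call, 13 gained one, 36 changed sign without passing in either fit, and 0 reversed a call. Most of these values belong to results that had not passed, all those at 2 h among them, and such results have no call to lose. The 73 losses thus fall on the few results that had passed, and the total does not measure how stable those calls were. Of the 6 h calls, mouse P2ry12 and Selplg and rat P2ry13 and Gpr34 held under all 16 alternatives, and rat Tmem119 under 14 of 15. The others held under 5 to 12 of 16: mouse P2ry13 12, Fcrls 9, Siglech 6 and Csf1r 5, and rat Selplg 9, P2ry12 6 and Sall1 6. The cause of the changes was not tested, except that fits without an array, or on 6 arrays alone, have fewer samples.

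Replicate numbers recur in every group. Same-numbered pMCAO and sham arrays had correlations of their deviations of -0.125 to 0.327 over 12 pairs, with 1 over 0.1. With 3 arrays per group these values cannot decide whether the numbers pair the animals, and the group-mean fit did not pair them. With a replicate block the mouse genes past the threshold numbered 35 at 2 h, 665 at 6 h and 0 for the change between times, and the rat genes 2 at 2 h and 4 for the change. With that block 3 mouse members passed at 6 h and 0 for the change, and 1 gene differed between species at 2 h.

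Mouse genes past the threshold numbered 66 at 2 h, 1649 at 6 h (711 higher, 938 lower, against 597 and 1227 with median centring) and 38 for the change. With trend and robust eBayes they were 110, 2574 and 351. Array weights gave 102 at 2 h, all clusters 39 at 2 h and 15 for the change, and leaving out dim genes 2480 at 6 h and 419 for the change. The 6 arrays alone gave 23 at 2 h and 246 at 6 h, and the striatal covariate 41 and 65. Mouse members past it at 6 h were 6, and 2 with the 6 arrays alone or the striatal covariate. For the change the count was 1, and it was 3 with trend and robust eBayes or without dim genes, 2 with array weights, and 0 with the mean of a symbol's clusters or all clusters.

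Rat genes numbered 12 at 2 h (6 in each direction, against 6 higher and 3 lower with quantile normalization), 1175 at 6 h and 42 for the change. Trend and robust eBayes gave 28 at 2 h and 121 for the change, array weights 65 and 82, all clusters 4 and 7, and leaving out dim genes 20 and 152. The 6 arrays alone gave 44 at 2 h and 363 at 6 h, and the striatal covariate 1 and 606. Rat members past it at 6 h were 6, and 3 with all clusters or the striatal covariate and 2 with the 6 arrays alone. For the change they were 0, and 1 with trend and robust eBayes, array weights or dim genes left out. Species differences numbered 2 at 2 h, with 1 under quantile normalization and 4 with array weights, and 323 at 6 h, with 531 under trend and robust eBayes and 203 with array weights.

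Leaving out each array in turn, mouse genes past the threshold numbered 23 to 42 at 2 h, 616 to 1368 at 6 h and 0 to 85 for the change, and rat genes 0 to 16, 550 to 1268 and 11 to 140. Members past it numbered 2 to 4 in mice at 6 h (3 without pMCAO replicate 1, sham replicate 1 or sham replicate 3, and 2 without sham replicate 2), 0 to 2 for the mouse change, 3 to 5 in rats at 6 h (3 without pMCAO replicate 1 or any sham array) and 0 to 1 for the rat change. Species differences numbered 0 to 3 at 2 h and 142 to 386 at 6 h. Mouse Gpr34 and rat Tmem119 were removed with the dim genes, and rat Csf1r passed at 6 h with trend and robust eBayes (adjusted p = 0.0341) or without dim genes (0.0248). With 3 animals per group and no detection calls, small changes of dim clusters such as mouse Gpr34 are poorly resolved.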
